A study of Homo sapiens with 12 samples.

Results

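In A673 cells under 4 h of actinomycin D, 8 long noncoding RNAs were followed, out of 26334 gene symbols in the counts table. They were MALAT1, NEAT1, KCNQ1OT1, MEG3, PVT1, TUG1, MIAT and OIP5-AS1. They were taken by symbol, as well known and mostly nuclear RNAs, and were selected on counts already seen, namely the shape of their time courses in these same libraries. All values of these RNAs are therefore given as descriptions, without a test. A673 is an established Ewing sarcoma cell line, and all samples carry the label shA673-1c (Ewing sarcoma). The cells were grown in serum with blasticidin and the selection drug that the labels spell zeocyn, and were seeded in 6-well plates. They received 5 µM actinomycin D (ActD), a drug that blocks transcription by binding DNA, for 0, 1, 2 or 4 h, with 3 biological replicates per time point and 12 libraries in all. Every group holds the same line, and no group without the drug was followed over the same hours. The titles of all 12 libraries also carry the tag CTL. The labels do not say what this tag or the shRNA name refers to. Poly(A) RNA was sequenced from a strand-specific kit, and the deposited values are raw counts of reads per gene symbol.

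Of the 8 RNAs, 7 averaged at least 10 counts per library and entered the model of 12032 genes. MIAT, with a mean of 8.08 counts, did not. Levels are given as CPM (counts scaled to a common library size), using the TMM factors of edgeR, which take the bulk of genes as level, and a slope is the fitted log2 change per hour over all 12 libraries. No spike-in entered the scaling, so a slope above 0 means a gain relative to the other polyadenylated RNAs and not necessarily a gain per cell. In these bulk samples, fewer cells of a kind and less RNA per cell cannot be told apart.

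Library totals ranged from 9147018 to 11194705 counts. Of 8 Ewing sarcoma markers, 5 (FLI1, NR0B1, STEAP1, PRKCB and BCL11B) had at least 100 counts in each library at 0 h, NKX2-2 had 63 to 87, CCK had 3 to 9, and CD99 was listed at 0. Of 8 markers of other cell types, KRT18 had 2659 to 3812 counts and the others had 0 to 2.

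Long noncoding RNAs act as RNA and not through a protein, and many stay in the nucleus. MALAT1 gathers in nuclear speckles, where splicing factors are stored, and NEAT1 is the scaffold of paraspeckles, ribonucleoprotein bodies that hold the proteins NONO and SFPQ. Both genes lie side by side. MALAT1 and the long form of NEAT1 have an unusual 3′ end. Their primary transcript is cut by RNase P, the enzyme that also trims tRNA precursors. The end is protected by a triple helix, in which a genomically encoded A-rich tract lies in U-rich runs. This structure stands in place of a normal poly(A) tail. KCNQ1OT1 and MEG3 belong to imprinted loci, in which only the copy from 1 parent is transcribed. PVT1 is the neighbour of the MYC oncogene. TUG1, MIAT and OIP5-AS1 (also called cyrano) are intergenic or antisense RNAs, of which TUG1 and OIP5-AS1 are conserved among vertebrates or mammals.

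The 3′ stretches of MALAT1 and NEAT1 are shown because they are the structural feature by which MALAT1 and long NEAT1 differ from ordinary polyadenylated transcripts. Both are written as DNA, 5′ to 3′, from the plus strand of GRCh38 (GENCODE version 44). Capitals mark the U-rich runs (as T) and the A-rich tract with the bases up to the cut site. The MALAT1 stretch is chr11:65505997-65506116, nucleotides 8358 to 8477 of the 10434 in the longest annotated transcript.
MALAT1: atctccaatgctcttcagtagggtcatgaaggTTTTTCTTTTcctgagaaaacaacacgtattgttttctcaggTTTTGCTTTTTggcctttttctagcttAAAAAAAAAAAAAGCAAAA
The NEAT1 stretch is chr11:65445421-65445540, the last 120 of 22743 nucleotides of the long transcript.
NEAT1: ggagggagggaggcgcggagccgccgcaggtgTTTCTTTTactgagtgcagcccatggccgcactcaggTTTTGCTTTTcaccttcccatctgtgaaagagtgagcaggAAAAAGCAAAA
The 2 stretches share their last 11 nucleotides, AAAAAGCAAAA, which 199 of 11213 tested genes with a v44 transcript (1.77%) hold somewhere in their longest transcript. They also share a run of 16, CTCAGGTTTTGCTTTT, around the second U-rich run, and only these 2 of the 11213 longest transcripts held it.

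MALAT1 was higher after 4 h in each replicate, while the libraries of 0 and 2 h overlapped. MALAT1 is a single-exon gene at chr11:65497640-65508073 on the plus strand. At 0 h its level was 93.7, 69.3 and 81.3 CPM in replicates 1, 2 and 3, and at 1 h it was 58.4, 77.3 and 88.9 CPM. At 2 h it was 90.6, 111 and 126 CPM, and at 4 h it was 165, 236 and 241 CPM. All 3 libraries at 4 h lay above every earlier library, whereas the libraries at 0 and 1 h overlapped. The mean went from 81.4 ± 12.2 CPM to 214 ± 42.5 CPM (SD, n = 3). Replicate 1 dropped to 0.623 of its 0 h level after 1 h, while replicates 2 and 3 stood at 1.12 and 1.09, and at 4 h the ratios to 0 h were 1.76, 3.40 and 2.97.

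NEAT1 was level for 2 h and then higher at 4 h in each replicate. It lies upstream of MALAT1 at chr11:65422774-65445540, and its short and long forms share their 5′ part, so the counts do not tell them apart. At 0 h it stood at 69.4, 58.96 and 67.0 CPM, and at 1 h at 63.1, 53.1 and 78.4 CPM. At 2 h it stood at 76.8, 57.1 and 79.1 CPM, and at 4 h at 173, 141 and 197 CPM. The libraries of 0, 1 and 2 h overlapped, and the lowest library at 4 h was above the highest of them. The mean went from 65.1 ± 5.48 CPM at 0 h to 71.0 ± 12.1 CPM at 2 h and 170 ± 28.2 CPM at 4 h (SD, n = 3). The ratios of 4 h to 2 h were 2.25, 2.46 and 2.49, so the 3 replicates gained by nearly equal factors in the last interval.

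KCNQ1OT1 was higher at 4 h than at 0 h, but with few reads and with 1 library that stood apart. It is an unspliced RNA, read from the minus strand at chr11:2597308-2700003, within and against the gene of the potassium channel KCNQ1, and it silences neighbouring genes on the paternal chromosome. The counts at 0 h were 84, 20 and 34, at 1 h 47, 35 and 40, at 2 h 75, 66 and 57, and at 4 h 78, 122 and 107. The levels at 0 h were 8.25, 1.93 and 3.02 CPM, and at 4 h they were 9.23, 11.8 and 11.98 CPM. The groups did not overlap, but the 0 h library of replicate 1 lay close to its own 4 h library, with a ratio of 1.12, against 6.12 and 3.97 in replicates 2 and 3. Counting error alone is 22.4% of the value for 20 reads and 10.9% for 84 reads, so the gap among the 0 h libraries is larger than the counting error. The slope was 0.38 with all libraries, 0.51 without that library, 0.57 without replicate 1, 0.28 without replicate 2 and 0.31 without replicate 3. KCNQ1 itself was listed at 0 in all 12 libraries.

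MEG3 gained in the first hour as well as in the last interval. MEG3, a maternally expressed RNA with growth-restraining activity, lies in the DLK1-DIO3 imprinted cluster at chr14:100779410-100861031. Its level at 0 h was 71.8, 45.6 and 50.9 CPM, and at 1 h it was 93.5, 80.6 and 85.5 CPM. At 2 h it was 106, 88.4 and 85.3 CPM, and at 4 h it was 147, 135 and 130 CPM. Every library at 1 h was above every library at 0 h, the libraries of 1 and 2 h overlapped, and every library at 4 h was above all others. The ratio of 4 h to 0 h was 2.05, 2.96 and 2.56. A pair of other RNAs of the same cluster were counted at low levels. MEG9 went from 2.09 ± 0.62 to 0.325 ± 0.11 CPM (slope -0.74, SE 0.098, adjusted p = 5.76e-06, edgeR). MEG8 went from 1.27 ± 0.68 to 2.09 ± 1.2 CPM (slope 0.19, SE 0.11, adjusted p = 0.154, edgeR). The protein-coding genes of the cluster, DLK1, RTL1 and DIO3, had means of 4, 1.83 and 0.25 counts and were not tested.

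PVT1 varied by a smaller factor and in no steady direction until 4 h. The levels in replicates 1, 2 and 3 were 12.6, 15.9 and 11.5 CPM at 0 h, 16.4, 12.8 and 12.4 CPM at 1 h, 14.8, 12.4 and 10.2 CPM at 2 h, and 19.4, 19.7 and 14.2 CPM at 4 h. The 4 h library of replicate 3 lay below the 0 h library of replicate 2, so the groups overlapped, although each replicate was highest at 4 h. The ratios of 4 h to 0 h were 1.54, 1.24 and 1.23. MYC, the neighbour of PVT1 and a transcription factor with a short-lived mRNA, fell from 134 ± 12 to 8.36 ± 2.8 CPM (slope -1.12, SE 0.10, adjusted p = 9.87e-08, edgeR).

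TUG1, which takes part in gene repression in the nucleus, varied little over time. It lies at chr22:30969245-30979395, and GENCODE version 44 types the gene as protein coding. Its levels were 136, 128 and 127 CPM at 0 h, 133, 131 and 126 CPM at 1 h, 126, 122 and 118 CPM at 2 h, and 130, 126 and 122 CPM at 4 h. The groups of 0 and 4 h overlapped, and the ratios of 4 h to 0 h were 0.955, 0.982 and 0.959. The SD of these ratios was 0.0148, the smallest among the 8 RNAs.

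OIP5-AS1, known for its pairing with the microRNA miR-7, also overlapped between 0 and 4 h. It lies at chr15:41283958-41322392. It stood at 57.7, 62.0 and 74.2 CPM at 0 h, 55.1, 54.9 and 66.2 CPM at 1 h, 60.3, 60.3 and 75.3 CPM at 2 h, and 69.3, 63.6 and 80.9 CPM at 4 h. Replicate 3 was the highest at each time, and each replicate was lowest at 1 h and highest at 4 h, with 4 h to 0 h ratios of 1.20, 1.03 and 1.09. The gene overlaps OIP5 on the other strand over 13120 nucleotides and NUSAP1 on the same strand over 1599. OIP5, a centromere protein gene, had a slope of 0.01 (SE 0.024, adjusted p = 0.644, edgeR). Whether the counting used the strand is not given in the sources used here, so reads of OIP5-AS1 and OIP5, or of KCNQ1OT1 and KCNQ1, may have been shared.

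MIAT, a spliced nuclear RNA at chr22:26646411-26676475, was near the limit of detection. Its counts were 5, 7 and 10 at 0 h, 6, 9 and 14 at 1 h, 9, 9 and 9 at 2 h, and 4, 8 and 7 at 4 h. With counting errors of 26.7% to 50% per library, no shape over time could be read at this depth.

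**Figure D1:**
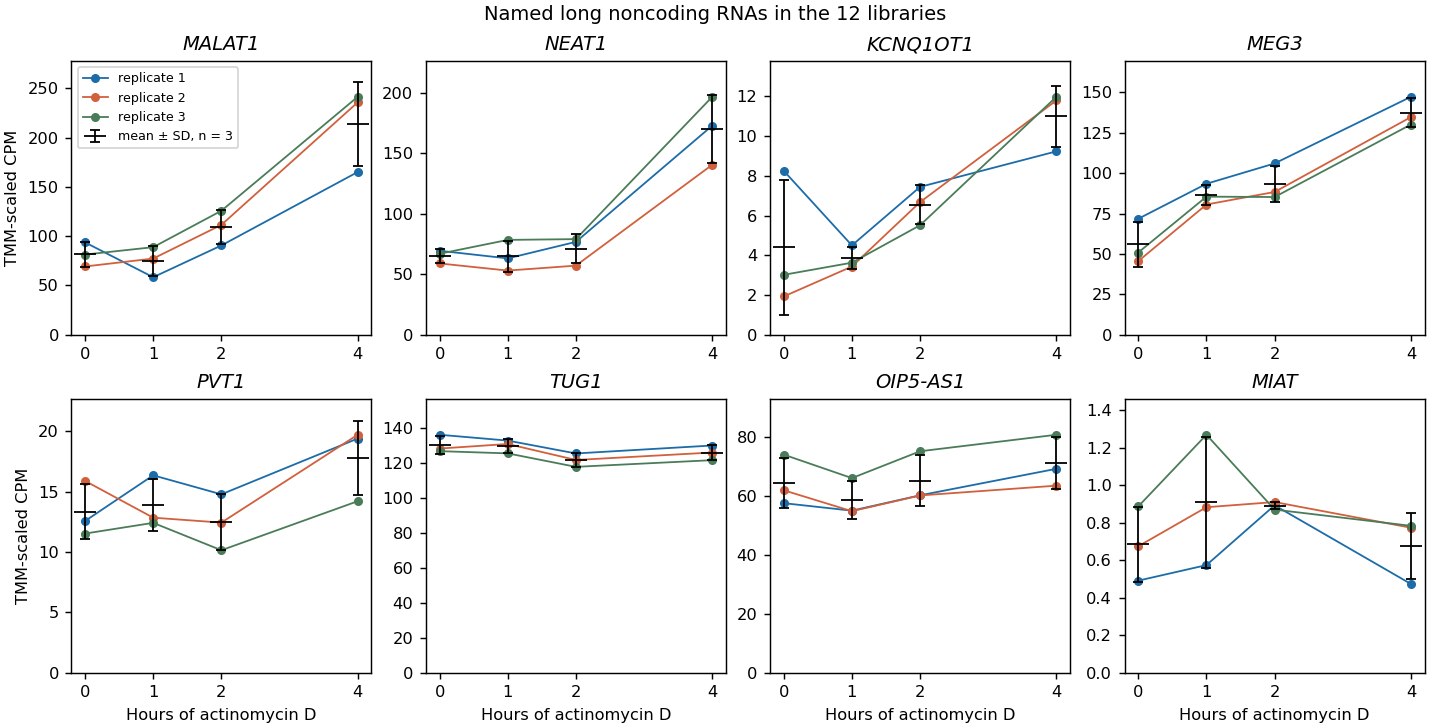
TMM-scaled CPM (vertical axis, from 0) against hours of actinomycin D in each of the 3 replicates (coloured lines) for the 8 RNAs, with black bars for the mean ± SD (n = 3). MALAT1, NEAT1, KCNQ1OT1 and MEG3 have all 4 h points above the 0 h points, and the lower row (PVT1, TUG1, OIP5-AS1 and MIAT) has overlapping points.

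The 4 RNAs whose 4 h and 0 h libraries did not overlap were MALAT1, NEAT1, KCNQ1OT1 and MEG3. Over all 12032 genes, 30.4% had every 4 h library above every 0 h library and 33.0% had every one below. The ratios of mean levels between 4 and 0 h were 2.63, 2.61, 2.50 and 2.45 in these 4 RNAs, whose baseline levels ran from 4.40 to 81.4 CPM. That of KCNQ1OT1 depended on the replicates used. The ratio was 4.81 without replicate 1, whose 0 h level was the highest, 1.88 without replicate 2 and 2.07 without replicate 3. The ratios were 1.33 for PVT1, 1.10 for OIP5-AS1, 0.989 for MIAT and 0.965 for TUG1. Together, the 8 RNAs took 0.0394% to 0.0465% of the counts at 0 h and 0.0660% to 0.0770% at 4 h, without overlap.

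The fitted steps of these 4 RNAs were largest at different times, a description that was not tested between RNAs. In each interval the SE was widest for KCNQ1OT1. In a fit with time as 4 groups, MEG3 had a log2 change of 0.63 ± 0.14 (SE) in the first hour, where MALAT1 had -0.12 ± 0.18, NEAT1 -0.00 ± 0.16 and KCNQ1OT1 -0.18 ± 0.39. Between 1 and 2 h the log2 change was 0.55 ± 0.17 for MALAT1 and 0.76 ± 0.37 for KCNQ1OT1, against 0.13 ± 0.16 for NEAT1 and 0.11 ± 0.13 for MEG3. From 2 to 4 h all of them gained, by a log2 change of 1.26 ± 0.15 for NEAT1, 0.97 ± 0.17 for MALAT1, 0.75 ± 0.33 for KCNQ1OT1 and 0.56 ± 0.13 for MEG3. The last interval is the longest, at 2 h, and NEAT1 had nearly all of its gain there. PVT1 also had its largest step in the last interval, a log2 change of 0.52 ± 0.18. A straight line over 0, 1 and 2 h alone gave slopes of 0.37 for MEG3, 0.31 for KCNQ1OT1, 0.22 for MALAT1, 0.07 for NEAT1 and -0.04 for PVT1.

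**Figure D2:**
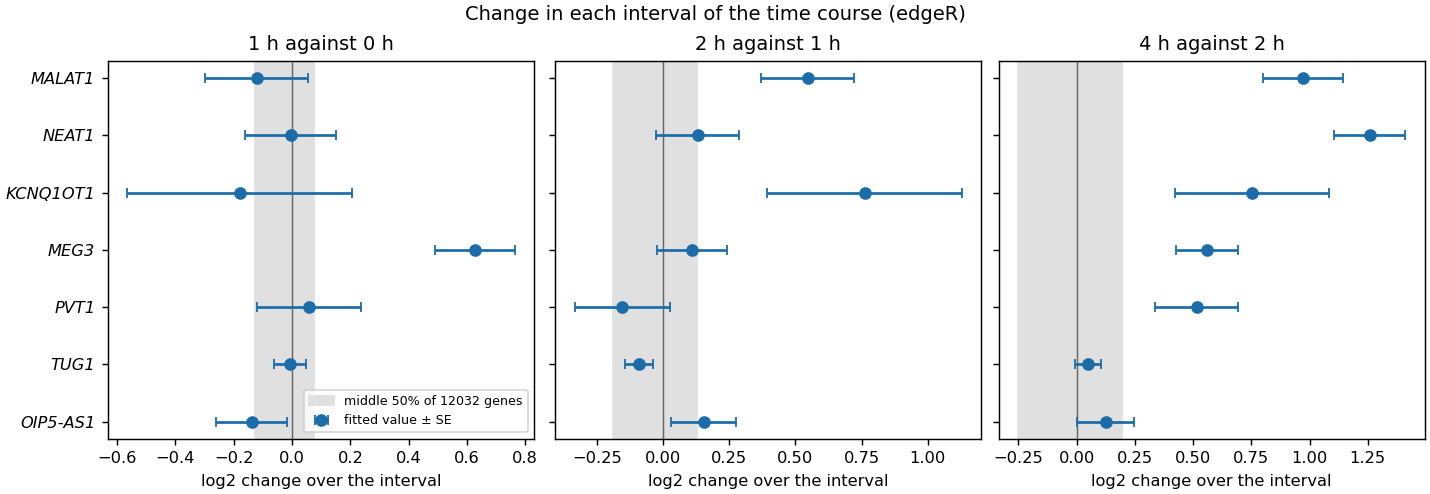
Fitted log2 change (points, with SE bars) over each interval of the time course for the 7 RNAs with enough counts, against the middle 50% of all 12032 genes (grey band). MEG3 stands apart in the first interval at 0.63, MALAT1 and KCNQ1OT1 in the second, and NEAT1 lies highest in the last at 1.26.

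The steepness of the 4 gains was unusual among all genes, which is how they came to be described. The slopes were 0.38 (SE 0.047) for MALAT1, 0.38 (SE 0.082) for KCNQ1OT1, 0.37 (SE 0.049) for NEAT1 and 0.30 (SE 0.036) for MEG3, and their ranks from the top of 12032 genes were 6, 7, 13 and 47. PVT1 had a slope of 0.10 (SE 0.044, rank 2499), OIP5-AS1 0.05 (SE 0.029, rank 4663) and TUG1 -0.02 (SE 0.014, rank 6783). The median slope was 0.01 over all genes, and the middle 50% ran from -0.13 to 0.09. At an adjusted p below 0.05 (edgeR), 3694 genes had a rising slope (30.7%) and 3859 a falling one (32.1%). Among the 7 RNAs, 4 were past that threshold upward and 0 downward, from which nothing is read, since the slopes chose them. With libraries blocked by replicate, 6 of the 7 RNAs were past the threshold upward and 0 downward, from which again nothing is read. PVT1 and OIP5-AS1 were the additional RNAs. Of all 12032 genes, 4356 then rose and 4182 fell. The blocked slope was 0.10 (SE 0.035) for PVT1 and 0.05 (SE 0.017) for OIP5-AS1, with smaller SEs than without the block. Comparing 4 h with 0 h alone, 28.7% of genes were higher and 31.6% lower.

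**Figure D3:**
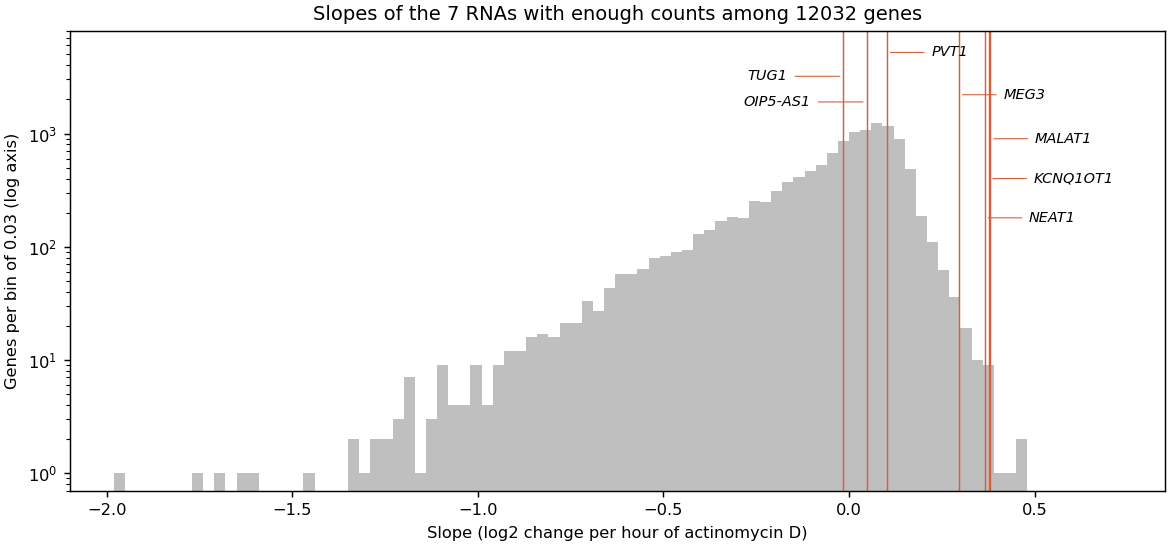
Histogram of the slopes of 12032 genes (horizontal axis, log2 change per hour; vertical log axis, genes per bin of 0.03), with red lines at the 7 RNAs. MALAT1, KCNQ1OT1 and NEAT1 lie at 0.37 to 0.38 near the upper end, and TUG1 and OIP5-AS1 lie near the median of 0.01.

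Of 274 tested genes that GENCODE version 44 types as lncRNA, MALAT1, KCNQ1OT1 and NEAT1 had the 3 highest slopes, MEG3 the 7th, PVT1 the 68th and OIP5-AS1 the 117th. These ranks are descriptions, since the slopes were in view when the RNAs were chosen. Only the 11213 of 12032 tested genes whose symbol was found in version 44 could enter the ranking. The median of the 274 was 0.02, beside 0.01 for 10827 protein-coding genes. The genes ranked 4, 5 and 6 were LINC00926 (slope 0.34), N4BP2L2-IT2 (slope 0.33) and LINC00174 (slope 0.30), the first and second of them with means of 21.8 and 11.5 counts. They are named for their ranks, after the values were seen.

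The size of every slope depended on the scaling. GAPDH, a glycolytic enzyme gene, and ACTB, the gene of cytoskeletal actin, went from 6001 to 9032 CPM and from 4983 to 7055 CPM between 0 and 4 h under TMM. Scaling each library to these 2 genes lowered the median slope of all genes by 0.14, and 112 genes then rose while 7729 fell. With library totals 2244 rose and 4702 fell. With GAPDH and ACTB, the slopes were 0.25 for MALAT1, 0.24 for KCNQ1OT1, 0.23 for NEAT1 and 0.16 for MEG3, and they were -0.04 for PVT1, -0.09 for OIP5-AS1 and -0.15 for TUG1. Of the last 3, PVT1 and OIP5-AS1 changed sign and TUG1 was steeper. Relative to the median of all genes under TMM, the slopes were 0.37 for MALAT1, 0.37 for KCNQ1OT1, 0.36 for NEAT1, 0.29 for MEG3, 0.09 for PVT1, 0.04 for OIP5-AS1 and -0.02 for TUG1.

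A ratio to GAPDH within each replicate needs no scaling. The 4 h to 0 h ratio of MALAT1 was 1.14 to 2.32 times that of GAPDH. For NEAT1 it was 1.62 to 1.95 times and for MEG3 1.33 to 2.01 times, each above 1 in 3 of 3 replicates. KCNQ1OT1 was above 1 in 2 of 3 replicates, with a range of 0.727 to 4.16. PVT1 had 0.820 to 1.00 times the GAPDH ratio, and TUG1 had 0.620 to 0.668. OIP5-AS1 had 0.698 to 0.781 and MIAT, with few reads, 0.587 to 0.780.

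**Figure D4:**
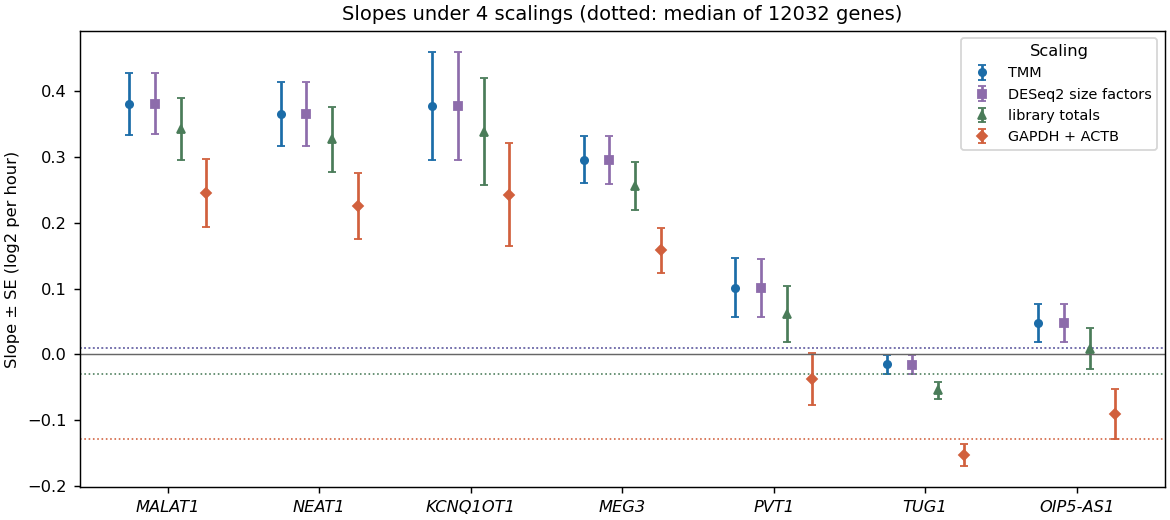
Slopes ± SE (vertical axis, log2 per hour) of the 7 RNAs under 4 scalings of the libraries, with dotted lines at the median slope of all 12032 genes under each. MALAT1, NEAT1, KCNQ1OT1 and MEG3 lie above 0 under each scaling, whereas PVT1 and OIP5-AS1 are below 0 with GAPDH and ACTB.

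Levels per kilobase placed TUG1 and MALAT1 first at 0 h. With the merged exons of each gene as its length, TUG1 had 12.9 ± 0.50 CPM per kb and MALAT1 7.81 ± 1.2 (SD, n = 3), and their ranges did not overlap. OIP5-AS1 (2.89 ± 0.38), NEAT1 (2.86 ± 0.24) and MEG3 (2.42 ± 0.60 CPM per kb) followed with overlapping ranges. PVT1 had 0.524 ± 0.090 CPM per kb. KCNQ1OT1 (0.0475 ± 0.036) and MIAT (0.0431 ± 0.012 CPM per kb) overlapped at the bottom. At 4 h MALAT1 was first, with 20.5 ± 4.1 CPM per kb against 12.4 ± 0.41 for TUG1, and their ranges did not overlap. The order and the overlaps rest on the length used. With the longest transcript, PVT1 had 5.44 and OIP5-AS1 7.28 CPM per kb at 0 h, above the 2.86 of NEAT1. By that length MALAT1 (6.64 to 8.98) overlapped OIP5-AS1 (6.49 to 8.35 CPM per kb) at 0 h. At 4 h MALAT1 (15.8 to 23.1) then overlapped TUG1 (16.3 to 17.4 CPM per kb). For NEAT1 both lengths, 22767 and 22743 nucleotides, span the long form, so its place by the length of the short form is not known. Both lengths of MALAT1 were 10434 nucleotides, which runs past the cut site at nucleotide 8477.

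Of the 8 RNAs, only the 3 with the steepest slopes had a longest transcript of 1 exon. Length did not set these 3 apart, since MEG3 was longer than MALAT1. The longest annotated transcripts of MALAT1, NEAT1 and KCNQ1OT1 have 1 exon each and 10434, 22743 and 91667 nucleotides, against a median of 4023 nucleotides and 8 exons over 11213 tested genes with a v44 transcript. The longest transcript of MEG3 has 7 exons and 12998 nucleotides, and that of MIAT 5 exons and 10143. That of TUG1 has 3 exons and 7474 nucleotides, that of OIP5-AS1 4 exons and 8881, and that of PVT1 13 exons and 2450. Over all 392 tested genes whose longest transcript has a single exon, the median slope was -0.16.

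Because the libraries were made from poly(A) RNA, runs of A inside the transcripts were counted. A run of at least 10 A occurred in 27.0% of the longest transcripts of tested genes. KCNQ1OT1 had 17 such runs (the longest of 29 A), NEAT1 had 5 (22 A), MEG3 had 2 (13 A), MALAT1 had 1 (13 A, the tract printed above) and PVT1 had 0. TUG1 had 1 run of 18 A, OIP5-AS1 had 1 run of 29 A and MIAT had 2 (24 A). The run counts were not adjusted for the length of the transcripts. The part of poly(A) selection in these levels was not tested.

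The profiles of MALAT1 and NEAT1 over the 12 libraries had a Pearson correlation of 0.88, and those of KCNQ1OT1 and MEG3 of 0.85. These points share time, depth and scaling, so the values are descriptions. TUG1 and OIP5-AS1 had a correlation of -0.65. Among the 8850 genes that averaged 100 counts or more, the profiles most like MALAT1 were those of PPIP5K2, SEPW1 and APH1A (r = 0.97 each), whose slopes of 0.09, 0.15 and 0.11 were flatter than that of MALAT1. NEAT1 was followed most closely by ADIPOR1, SH3KBP1 (r = 0.97 each) and C1orf43 (r = 0.96). For MEG3 they were POLE, TMEM63B and SORBS3 (r = 0.98 each), for PVT1 FAM13B and SDC4 (r = 0.88 each, the second and the third closest), for TUG1 RELT, CHST3 and LRRC8A (r = 0.96, 0.94 and 0.92) and for OIP5-AS1 CENPK, CCDC25 and IDH1 (r = 0.95 each). With GAPDH and ACTB scaling the lowest of these correlations was -0.10, and with 1 replicate left out the lowest was 0.80.

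Genes related to these RNAs were taken from 5 lists, and their slopes were tested within all 12032 genes (edgeR, adjusted p below 0.05). The lists were chosen with earlier results of these data known, so the tests are not independent of that choice. Of 51 other named long noncoding RNAs, 26 were tested. Of these, 8 fell (30.8%, beside 32.1% of all genes), 4 rose (15.4%, beside 30.7%) and 14 did not pass. Their median slope was -0.01, beside 0.01 for all genes. MIR17HG, the host of the miR-17-92 cluster, fell from 3.45 ± 0.99 to 0.143 ± 0.13 CPM (slope -1.62, SE 0.19, adjusted p = 1.5e-06, edgeR). MIR22HG, the host of miR-22, fell from 25.2 ± 4.7 to 1.96 ± 0.29 CPM (slope -1.01, SE 0.095, adjusted p = 1.38e-07, edgeR). MEG9, given above, was the third. FIRRE, a nuclear RNA that organizes chromatin contacts, rose from 5.19 ± 0.57 to 8.11 ± 1.2 CPM (slope 0.17, SE 0.041, adjusted p = 0.00161, edgeR), and TP53TG1 (slope 0.16) and DANCR (slope 0.12) rose as well. The adjusted p of TP53TG1 was 0.0211 with all libraries, 0.126 without replicate 1, 0.0677 without replicate 2, 0.0762 without the 4 h library of replicate 1 and 0.0924 with library totals (edgeR), and 0.0657 by DESeq2. Under GAPDH and ACTB scaling 14 of the list fell and 0 rose.

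Of 18 paraspeckle protein genes, all tested, 12 rose (66.7%, beside 30.7% of all genes) and 2 fell (11.1%, beside 32.1%). The other 4 did not pass, and the median slope was 0.07. The RNA-binding protein genes HNRNPH1 (slope 0.10) and DAZAP1 (slope 0.10) were among those that rose. HNRNPF (slope -0.13) and TARDBP (slope -0.07), the gene of TDP-43, fell. Of the core proteins that bind NEAT1, NONO rose (slope 0.08, adjusted p = 8.62e-05, edgeR), whereas SFPQ had a slope of 0.00 (adjusted p = 0.838, edgeR) and PSPC1 of 0.02 (adjusted p = 0.404, edgeR). They are named here after their values were seen. Under GAPDH and ACTB scaling 0 of the 18 rose and 14 fell, so the direction of this list changed with the scaling.

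Of 12 tested nuclear speckle protein genes (of 13 listed), 3 fell (25%, beside 32.1% of all genes) and 2 rose (16.7%, beside 30.7%). The other 7 did not pass, and the median slope was -0.02. PNN (slope -0.11), SRRM1 (slope -0.10) and THRAP3 (slope -0.05) fell, and SRRM2 (slope 0.11), the scaffold protein of speckles, and U2AF2 (slope 0.10), a splice site factor, rose. With the replicate number as a block, 5 fell.

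Of 22 tested genes of 3′ end formation and nuclear RNA decay (of 23 listed), 15 fell (68.2%, beside 32.1% of all genes). A further 3 rose (13.6%, beside 30.7%) and 4 did not pass, with a median slope of -0.22. RPP38, a subunit of RNase P, fell from 19.4 ± 3.0 to 1.56 ± 0.74 CPM (slope -0.93, SE 0.076, adjusted p = 3.41e-08, edgeR). RBM7 (slope -0.57), a subunit of the nuclear exosome targeting complex, and NRDE2 (slope -0.50) had the next steepest falls. The poly(A) polymerase gene PAPOLA (slope 0.06), the tRNA 3′ end nuclease gene ELAC2 (slope 0.08) and the nuclear poly(A)-binding protein gene PABPN1 (slope 0.18, mean of 43.9 counts), which may share reads with its read-through gene, rose. The adjusted p of PABPN1 was 0.00981 with all libraries, 0.0748 without replicate 2, 0.111 without replicate 3 and 0.0758 without the 4 h library of replicate 3 (edgeR), and the rise of PAPOLA was not past the threshold with library totals. Under GAPDH and ACTB scaling 21 of the 22 fell and 0 rose. These are mRNA levels, and the proteins were not measured.

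Of 18 tested neighbours of the 8 genes (of 25 listed), 5 fell and 5 rose (27.8% each, beside 32.1% and 30.7% of all genes). The other 8 did not pass, and the median slope was 0.02. MYC near PVT1 (slope -1.12), TFIP11 near MIAT (slope -0.39) and TSSC4 near KCNQ1OT1 (slope -0.29) had the steepest falls. LTBP3, near MALAT1 on chromosome 11, rose from 46.4 ± 4.4 to 93.3 ± 12 CPM (slope 0.23, SE 0.027, adjusted p = 1.48e-06, edgeR). CD81 (slope 0.14), near KCNQ1OT1, and EHBP1L1 (slope 0.14), near MALAT1, rose too. CDKN1C, the imprinted cell cycle inhibitor gene next to KCNQ1OT1, had a mean of 7.58 counts and was not tested.

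**Figure D5:**
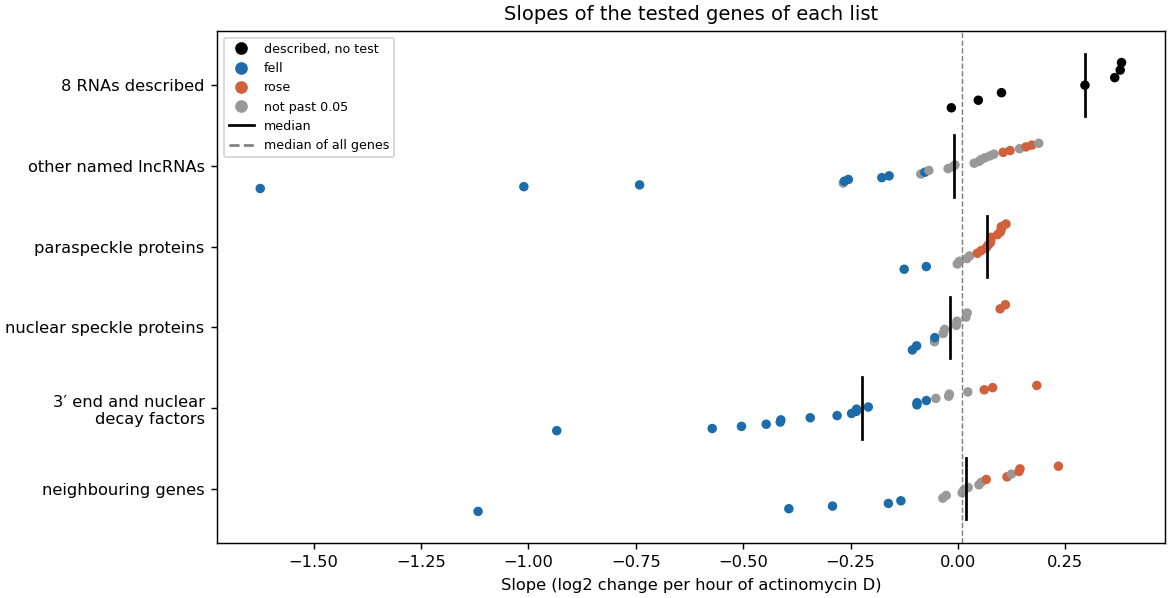
Slopes (horizontal axis, log2 change per hour) of the tested genes of each list, with a bar at each list's median and a dashed line at the median of all genes. Blue points fell and red points rose at an adjusted p below 0.05 (edgeR), and the 7 RNAs described are in black without a test, with a median of 0.30.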

How the data were processed

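A673 (shA673-1c) cells were sampled at 0, 1, 2 and 4 h of 5 µM actinomycin D in 3 replicates. For each gene symbol, whole-number raw counts were deposited. Per the labels, the processing notes name FastQC, STAR and hg19, without versions. The counting tool, its strand setting and the annotation are not given in the sources used here. Columns were matched to samples by title.

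The models were those of edgeR 4.0.16 under R 4.3.3 (glmQLFit, glmQLFTest, Benjamini-Hochberg over the 12032 genes that averaged 10 counts or more, TMM factors from the same genes). Slopes used time in hours as a number, and contrasts used time as 4 groups, without a block. SEs came from the F statistic. The common coefficient of biological variation was 0.0905, and replicates differed by more than sampling noise in all 12 pairs. Scripts were tested on simulated data. Same-numbered libraries had correlated deviations from their group means in all 18 pairs (r from 0.29 to 0.60, against at most 0.08 for different numbers), so the numbers pair the samples.

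The members and gene lists were chosen with earlier results of these data known. Named genes were the 8 RNAs, up to 3 steepest falls and rises past the threshold per list, KCNQ1, CDKN1C, DLK1, OIP5, MYC, GAPDH, ACTB and the 3 closest profiles. Of the genes named by this rule, 2 are not reported here. GENCODE version 44 (GRCh38) gave positions, lengths and sequences by symbol, for 11213 of 12032 genes (93.2%). Alternatives were library totals, DESeq2 1.42.0 size factors and Wald test, GAPDH plus ACTB scaling, other count filters, a replicate block, other time points and leaving out libraries. Correlations under other scalings and without a replicate were added after seeing the data.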

Additional observations from a re-analysis of the deposited data

How the results depend on the processing

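Counts of genes past the threshold, over all alternatives, were within a factor of 1.5 in 386 cases and outside it in 38, and no slope of MALAT1, NEAT1, KCNQ1OT1 or MEG3 went below 0. Scaling to GAPDH and ACTB gave 7729 falling and 112 rising genes over time and 7612 lower and 111 higher at 4 h than 0 h. It gave 14 falling and 0 rising other named lncRNAs, 14 and 0 paraspeckle genes, 11 and 0 nuclear speckle genes, 0 rising 3′ end genes, and 13 falling and 1 rising neighbours. The count of the 7 RNAs past the threshold downward, a description since these values chose them, was 2 over time and for 4 h against 0 h. Under it, slopes below 0 were found for DANCR (-0.017), HNRNPH1 (-0.036), DAZAP1 (-0.037), SRRM2 (-0.027), U2AF2 (-0.040), ELAC2 (-0.058), PAPOLA (-0.077), OIP5 (-0.12) and ACTB (-0.017). Library totals gave 2244 rising genes, 2121 higher at 4 h, a count of 1 of the 7 RNAs downward in each comparison, 2 rising other lncRNAs, 7 rising paraspeckle genes, 8 falling speckle genes and 3 rising neighbours. With 0, 1 and 2 h only, 2198 genes fell and 1433 rose, the count of the 7 RNAs past the threshold upward was 1 (MEG3), 0 other lncRNAs and 0 3′ end genes rose, 0 paraspeckle genes fell and 4 rose, 0 speckle genes fell, and 2 neighbours fell and 3 rose. PNN and THRAP3 then had slopes of 0.00044 and 0.0038. Apart from the change of scaling itself, the cause of these moves was not tested. The setting with 0, 1 and 2 h only has both fewer samples and a shorter span of time, which cannot be told apart.

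Samples with the same number are paired, and with the replicate block 5 speckle genes fell in place of 3, and 4182 genes fell and 4356 rose. The count of the RNAs described that were past the threshold upward was then 6 in place of 4, a description since these values chose them. A mean of at least 30 counts left 5 falling other lncRNAs. Leaving out replicates gave 5 to 8 falling other lncRNAs (5 without the 4 h library of replicate 3) and 2 to 5 rising ones (2 without replicate 1 or without replicate 2, 5 without the 0 h library of either). Depth limits MIAT and KCNQ1OT1, with at most 14 and 122 reads per library.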
